A study of Mus musculus with 15 samples.

Results

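Nqo1, Hmox1, Gclc, Gclm, Slc7a11, Txnrd1, Srxn1, Abcc4, Taldo1 and Tkt are textbook targets of the transcription factor NRF2, and their messenger RNA was followed across 15 arrays of primary mouse hepatocytes. The 10 genes were taken by symbol, with every probe set that the platform's annotation gives to 1 of them alone, which yielded 20 probe sets and 10 of the 18193 genes on the array. All 20 probe sets passed the filter on dim signals, a log2 signal of 4 or more on at least 3 arrays. With wild-type IRE1a, 5 of the 10 genes fell against EGFP and none rose, where 2.59% of all genes tested fell. With S724A IRE1a, 3 of the 10 fell and none rose, where 2.25% of all genes fell. No gene of the 10 passed the test between the IRE1a forms, where 0% of all genes passed. None passed with the hairpin against IRE1a beside a control hairpin, both with glucagon, where 0.233% of all genes did.

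NRF2, encoded by Nfe2l2, is held in the cytoplasm and marked for degradation by KEAP1, whose cysteines sense oxidants and electrophiles. When KEAP1 is modified, NRF2 enters the nucleus, pairs with a small MAF protein and binds the antioxidant response element in front of genes that import cystine, make glutathione, recycle thioredoxin, supply NADPH and clear quinones, haem and conjugates. In hepatocytes this programme limits damage from drugs, bile acids and lipid oxidation. IRE1a, the product of Ern1, is a sensor of misfolded protein in the membrane of the endoplasmic reticulum, with a kinase and an RNase domain.

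The hepatocytes came from C57BL/6 mice and were kept in serum-free medium. In the expression arm an adenovirus carried the control protein EGFP, the wild-type form of IRE1a, or the S724A form, a serine-to-alanine mutant, and RNA was taken after 48 hours with no further treatment. In the hairpin arm an adenovirus delivered a control hairpin (shCON) or a hairpin against IRE1a (shIRE1a#2) for 72 hours, and both groups then received glucagon for 4 hours. Each of the 5 groups has 3 arrays, and per the series text the experiment was run independently 3 times. No group was left without virus, the hairpin arm has no group without glucagon, and the knockdown rests on a single hairpin. Values are log2 signals, and a change is a difference of log2 group means ± SE from limma, which compares all genes in 1 model of the 15 arrays. That model holds no term for the replicate number, which was tried separately as a block. "Rose" and "fell" mark an adjusted p under 0.05 over 16294 tested genes. Signals of different genes were not set against each other, because probe sets bind with different strength.

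Array medians lay between 5.69 and 5.83, and 79.0% to 81.4% of probe sets reached a signal of 4. The 3′ minus 5′ signal of the Actb control, a sign of RNA integrity, was 0.38 to 0.61 on 14 arrays and 1.00 on wild-type IRE1a replicate 3. The same 5 NRF2 targets fell with wild-type IRE1a when that array was left out. Ern1, the targeted gene, read 8.89, 8.96 and 9.10 with the control hairpin and 7.60, 7.44 and 7.51 with the IRE1a hairpin, a fall of 2.76-fold (adjusted p = 0.00293). That is its brightest probe set and the only 1 of 5 that passed; the others changed by -0.65, -0.58, -0.43 and 0.35. None of its 5 probe sets passed the test with either IRE1a virus, so these arrays do not show the delivered transgene, and whether the probe sets detect the virus-borne message was not tested. Of 10 hepatocyte markers 8 were on the array, and Alb, for albumin, had group means of 14.22 to 14.48. Hepatocyte markers were not all steady. Cyp2e1, a cytochrome P450 of mature hepatocytes, fell with wild-type IRE1a from a mean of 12.52 to 10.24 (-2.27 ± 0.43, adjusted p = 0.00421) and with S724A (-1.76 ± 0.43, adjusted p = 0.0256), while Hnf4a and Pck1 rose with wild-type IRE1a by 0.74 ± 0.19 and 1.03 ± 0.22 (adjusted p = 0.0237 and 0.0101). Of these calls, that of Cyp2e1 with wild-type IRE1a held without each array in turn; with S724A it held only without replicate 1 of S724A, and those of Hnf4a and Pck1 were lost without EGFP replicate 2 or wild-type IRE1a replicate 3, Hnf4a also without wild-type IRE1a replicate 2, and Pck1 also when its 3 probe sets were averaged. Cyp2e1 was also lower in the control hairpin group with glucagon than with EGFP (-1.86 ± 0.43, adjusted p = 0.0104). Pck1 was higher there by 7.25 ± 0.22 (adjusted p = 1.43e-10). No tested gene of 6 marker lists for other liver and blood cells passed with either IRE1a virus or with the IRE1a hairpin. Of the macrophage list, 10 of 10 genes were on the array. Their summed signal was 11.71 to 11.91 with EGFP, 12.13 to 12.23 with wild-type IRE1a, 11.91 to 12.14 with S724A, 11.17 to 11.72 with the control hairpin and 11.64 to 12.01 with the IRE1a hairpin. Cd68, a lysosomal protein of macrophages that other cells also make, set that sum, while Cd163 and Ptprc stayed under a mean of 4 in every group. Of the 8 macrophage genes tested, 5 had negative changes with wild-type IRE1a (median -0.05) and 6 with S724A (median -0.19). The part of such cells, or of the hepatocyte markers that moved, in the changes below was not tested, and in bulk RNA fewer cells of a type and less RNA per cell cannot be told apart.

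Short windows at the starts of the targets were searched for the core of the antioxidant response element, which some windows lacked. RefSeq windows of assembly GRCm38.p6, from 250 bases before to 50 bases after each start, were found for 8 of the 10 genes and gave 11 windows. Hmox1 and Gclc had no window, and sequence outside these windows was not searched. The element's core was searched as TGACNNNGC on both strands, and it occurred in 4 of the 8 genes against 14% of the 27025 genes in the table. A second form, TGAGNNNGC, occurred in 4 of the 8 against 19.8%, and TGATGCAA, a core of the amino acid response element bound by ATF4, in 1 of the 8 against 1.03%. TGAGNNNGC and TGATGCAA were chosen after these windows had been read, so their shares beside all genes are no test of enrichment. The share of TGACNNNGC is no such test either, because the genes were picked as NRF2 targets. The windows of Tkt and Nqo1 held no match to any of these motifs. A match is a description of letters, not of binding. The 250 bases before the start of 4 genes follow, 5′ to 3′ on the gene's strand, with matches to any of these motifs in capitals; the Srxn1 match 45 bases before the start also contains TGAGTCA, the site of AP-1 factors.
Srxn1, chr2:152105274-152105523, plus strand: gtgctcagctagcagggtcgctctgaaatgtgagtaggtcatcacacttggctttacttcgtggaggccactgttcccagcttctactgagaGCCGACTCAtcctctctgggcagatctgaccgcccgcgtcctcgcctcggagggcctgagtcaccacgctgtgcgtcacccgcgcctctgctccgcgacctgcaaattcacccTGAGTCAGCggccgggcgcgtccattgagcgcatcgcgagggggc
Slc7a11, chr3:50443614-50443863, minus strand: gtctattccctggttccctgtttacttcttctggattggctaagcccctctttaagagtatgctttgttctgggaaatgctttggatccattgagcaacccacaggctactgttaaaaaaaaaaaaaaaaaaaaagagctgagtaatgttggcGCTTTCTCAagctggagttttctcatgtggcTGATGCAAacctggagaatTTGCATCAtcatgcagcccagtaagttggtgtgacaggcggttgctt
Txnrd1, chr10:82858956-82859205, plus strand, 1 of its 3 windows: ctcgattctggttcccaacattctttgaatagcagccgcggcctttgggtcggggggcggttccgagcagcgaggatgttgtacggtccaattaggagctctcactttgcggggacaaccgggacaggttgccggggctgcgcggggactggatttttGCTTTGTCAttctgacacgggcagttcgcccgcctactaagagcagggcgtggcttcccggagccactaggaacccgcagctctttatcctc
Taldo1, chr7:141391910-141392159, plus strand: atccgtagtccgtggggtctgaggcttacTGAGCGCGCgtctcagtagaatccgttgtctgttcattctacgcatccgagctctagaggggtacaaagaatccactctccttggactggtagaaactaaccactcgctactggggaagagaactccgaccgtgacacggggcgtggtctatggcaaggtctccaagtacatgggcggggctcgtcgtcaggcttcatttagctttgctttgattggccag
In Srxn1 the printed matches begin 158 and 45 bases before the start and are of the second form, and the core TGACNNNGC lies on the reverse strand 28 bases after the start, beyond the printed stretch. In Slc7a11 the second form lies 97 bases before the start, and TGATGCAA occurs on both strands, 66 and 47 bases before it. In Txnrd1 the core TGACNNNGC lies on the reverse strand 92 bases before the start, and in Taldo1 a match of the second form lies 221 bases before it.

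The comparison of wild-type IRE1a with EGFP asks what added IRE1a does to the hepatocyte transcriptome. Taldo1, Slc7a11, Abcc4, Txnrd1 and Tkt fell, and the other 5 targets had negative changes that did not pass. Of all genes tested, 2.59% fell and 5.08% rose, so 5 of 10 is a larger share than the background of falling genes. The median change of the 10 genes was -0.52, beside 0.003 over all genes tested. In 7 of the 10 all 3 wild-type arrays lay below all 3 EGFP arrays, an arrangement found in 10.9% of all genes. Among the 20 probe sets, all had negative changes and 8 fell, against 2.07% of all probe sets tested. Here and below, probe sets of the same gene are not independent, and all those of Txnrd1 are among the 8.

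The comparison of S724A IRE1a with EGFP uses the same 3 EGFP arrays. Taldo1, Txnrd1 and Abcc4 fell, and all 10 changes were negative. Over all genes 2.25% fell and 3.87% rose. The median change of the 10 genes was -0.31, beside -0.01 over all genes, and in 6 of them the groups did not overlap, with S724A lower, against 16.8% of all genes. Of the 20 probe sets 6 fell, against 1.75% of all probe sets, and 19 had negative changes.

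**Figure D1:**
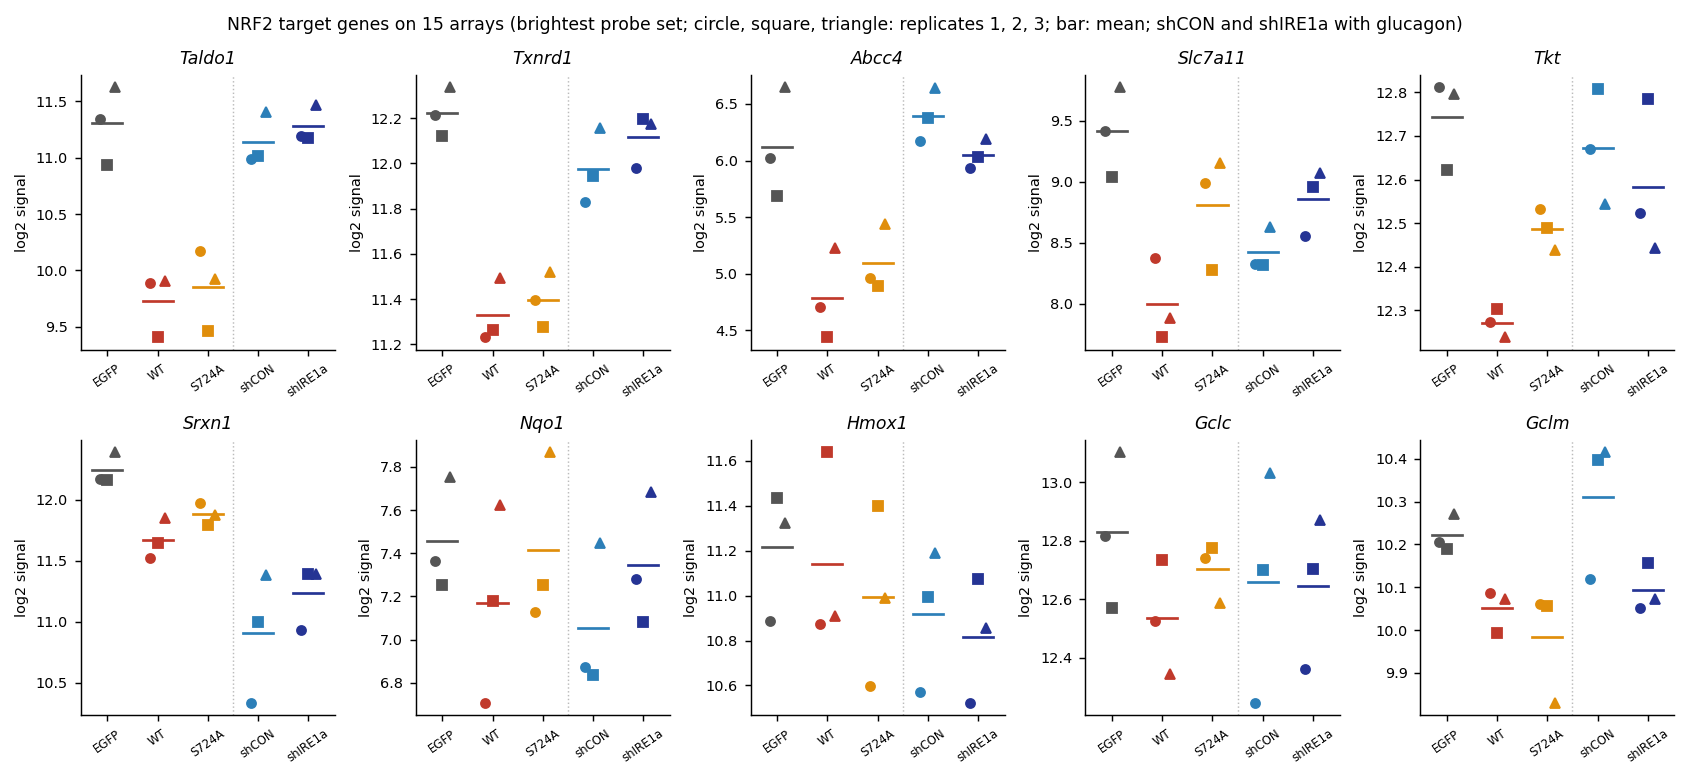
Log2 signal of each of the 10 NRF2 target genes (y axis, brightest probe set, with a scale of its own in each panel) in the 5 groups (x axis); circles, squares and triangles are replicates 1, 2 and 3, bars are means of 3 arrays, and the dotted line parts the expression arm from the hairpin arm. Taldo1 lies between 9.41 and 10.17 with either IRE1a virus and between 10.94 and 11.62 in the other 3 groups.

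Taldo1 encodes transaldolase, which with transketolase links the pentose phosphate pathway to glycolysis. Its probe set, the only one on the array, read 11.34, 10.94 and 11.62 with EGFP, 9.89, 9.41 and 9.90 with wild-type IRE1a, and 10.17, 9.46 and 9.93 with S724A. Every array with an IRE1a virus lay below every EGFP array. The fall was 2.97-fold with wild-type IRE1a, a change of -1.57 ± 0.21 (adjusted p = 0.000265), and the change was -1.45 ± 0.21 with S724A (adjusted p = 0.000577). In the hairpin arm Taldo1 read 10.99, 11.01 and 11.40 with the control hairpin and 11.19, 11.17 and 11.47 with the IRE1a hairpin, which overlap, and the change of 0.14 ± 0.21 did not pass.

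Tkt encodes transketolase, the other enzyme of that link. It read 12.81, 12.62 and 12.80 with EGFP, 12.27, 12.30 and 12.24 with wild-type IRE1a, and 12.53, 12.49 and 12.44 with S724A. The 3 groups did not overlap, with EGFP highest, S724A between and wild-type IRE1a lowest. The change with wild-type IRE1a was -0.47 ± 0.11 (adjusted p = 0.0133), and it did not pass without EGFP replicate 3 (adjusted p = 0.0557) or when its 3 probe sets were averaged (-0.32, adjusted p = 0.0506). With S724A the change of -0.26 ± 0.11 did not pass (adjusted p = 0.161). The probe sets of Tkt disagreed, at -0.47, -0.48 and -0.02 with wild-type IRE1a. The probe set at -0.02 was dim, between 5.26 and 6.10 on all arrays.

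Txnrd1 encodes the cytosolic thioredoxin reductase, which spends NADPH to keep thioredoxin reduced. It read 12.21, 12.12 and 12.34 with EGFP, 11.23, 11.26 and 11.49 with wild-type IRE1a, and 11.40, 11.28 and 11.52 with S724A, and no array of either IRE1a virus reached the EGFP arrays. The change was -0.89 ± 0.12 with wild-type IRE1a (adjusted p = 0.000241) and -0.83 ± 0.12 with S724A (adjusted p = 0.000515). All 3 of its probe sets fell in both comparisons, by 0.86 to 0.89 with wild-type IRE1a and by 0.64 to 0.83 with S724A on the log2 scale. Its levels in the hairpin arm, 11.83, 11.95 and 12.16 against 11.98, 12.20 and 12.18 with the IRE1a hairpin, overlapped.

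Srxn1 encodes sulfiredoxin, which repairs over-oxidised peroxiredoxins. It read 12.17, 12.16 and 12.39 with EGFP, 11.52, 11.65 and 11.85 with wild-type IRE1a, and 11.97, 11.80 and 11.88 with S724A, so that both IRE1a groups lay below EGFP without overlap. The change with wild-type IRE1a, -0.57 ± 0.21, did not pass (adjusted p = 0.119). It did pass once the replicate number entered as a block (adjusted p = 0.00781, where 4.99% of all genes fell), with the 6 arrays fitted alone (adjusted p = 0.0389) and as the average over its 4 probe sets (-0.51, adjusted p = 0.0418). Of its 4 probe sets 1 fell with wild-type IRE1a, by 0.59, and another fell with S724A, by 0.39.

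**Figure D2:**
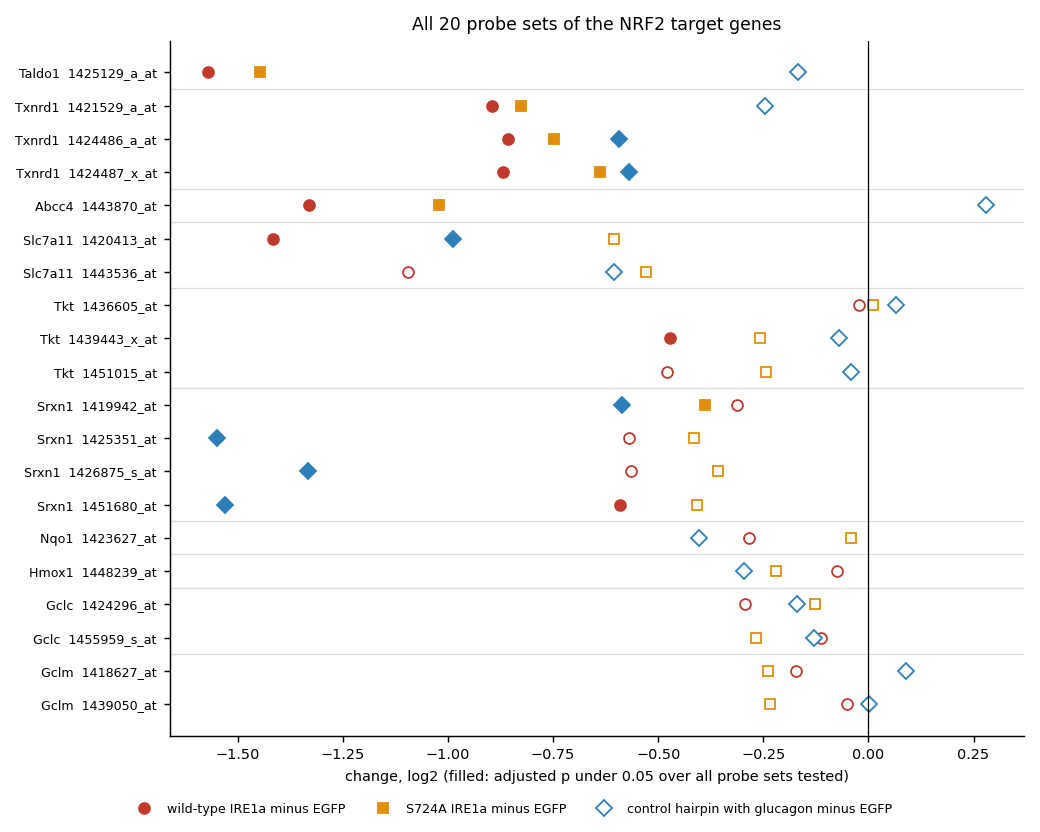
Change (x axis, log2) of each of the 20 probe sets of the NRF2 target genes (y axis, grouped by gene) in 3 comparisons that share the EGFP arrays; filled symbols have an adjusted p under 0.05 over 30046 probe sets. All 20 changes with wild-type IRE1a are negative; the 3 probe sets of Txnrd1 are filled in both IRE1a comparisons, and the 4 of Srxn1 in the comparison of the control hairpin with EGFP.

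Slc7a11 encodes xCT, the transporter that brings in cystine for glutathione synthesis; it is also a textbook target of ATF4. It read 9.42, 9.04 and 9.78 with EGFP, 8.38, 7.73 and 7.89 with wild-type IRE1a, and 8.99, 8.28 and 9.15 with S724A. Wild-type IRE1a lay below EGFP on every array, while S724A overlapped both. The change with wild-type IRE1a was -1.42 ± 0.24 (adjusted p = 0.00208), and with S724A it was -0.61 ± 0.24 (adjusted p = 0.146), which passed with the replicate block (adjusted p = 0.0226, where 5.52% of all genes fell). Its second, dimmer probe set gave -1.10 and -0.53, and neither passed.

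Gclc and Gclm encode the catalytic and the modifier subunit of glutamate-cysteine ligase, the rate-limiting enzyme of glutathione synthesis. Gclc read 12.82, 12.57 and 13.10 with EGFP, 12.53, 12.74 and 12.35 with wild-type IRE1a, and 12.74, 12.78 and 12.59 with S724A, and the 3 groups overlapped. Gclm read 10.20, 10.19 and 10.27 with EGFP, 10.09, 9.99 and 10.07 with wild-type IRE1a, and 10.06, 10.06 and 9.83 with S724A. The Gclm arrays of both IRE1a groups lay below those of EGFP, by changes of -0.17 ± 0.10 and -0.24 ± 0.10 that did not pass (adjusted p = 0.364 and 0.169). For Gclc the changes were -0.29 ± 0.19 and -0.13 ± 0.19.

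Nqo1 encodes the quinone reductase that is often read as the marker of NRF2 activity, and Hmox1 encodes haem oxygenase 1, which opens haem to biliverdin, iron and carbon monoxide. Nqo1 read 7.36, 7.25 and 7.75 with EGFP, 6.71, 7.18 and 7.63 with wild-type IRE1a, and 7.13, 7.25 and 7.87 with S724A. Hmox1 read 10.89, 11.43 and 11.32, then 10.87, 11.64 and 10.91, then 10.60, 11.40 and 10.99 in the same order. The groups of both genes overlapped. With wild-type IRE1a the 95% interval of the change ran from -0.84 to 0.26 for Nqo1 and from -0.61 to 0.46 for Hmox1, so shifts of such sizes could not be resolved with 3 arrays a group.

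Abcc4 encodes MRP4, a pump that exports conjugates and bile acids across the sinusoidal membrane. Its only probe set was dim, at 6.02, 5.69 and 6.65 with EGFP, 4.70, 4.44 and 5.23 with wild-type IRE1a, and 4.96, 4.89 and 5.44 with S724A, with both IRE1a groups below EGFP on every array. The change was -1.33 ± 0.24 with wild-type IRE1a (adjusted p = 0.00309) and -1.02 ± 0.24 with S724A (adjusted p = 0.0211). The S724A change rested on several arrays: the adjusted p was 0.0845 when EGFP replicate 3 was left out, 0.0741 when replicate 1 of S724A was, and 0.0931 when replicate 2 of S724A was.

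Wild-type and S724A IRE1a were compared directly to ask whether the serine matters for these genes. None of the 10 genes passed in limma, and 1 had an unadjusted p under 0.05. Over all genes 0% passed, with 997 of 16294 at an unadjusted p under 0.05, and likewise 0% of probe sets. Slc7a11 was lower with wild-type IRE1a by the widest margin of the 10, a change of -0.81 ± 0.24 (unadjusted p = 0.00466, adjusted p = 0.801), and replicate 1 of wild-type IRE1a, at 8.38, lay above replicate 2 of S724A, at 8.28. Tkt differed by -0.21 ± 0.11 (adjusted p = 0.835). The intervals ran from -0.57 to 0.32 for Taldo1, from -0.32 to 0.18 for Txnrd1 and from -0.82 to 0.21 for Abcc4, which does not show that both forms act alike.

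**Figure D3:**
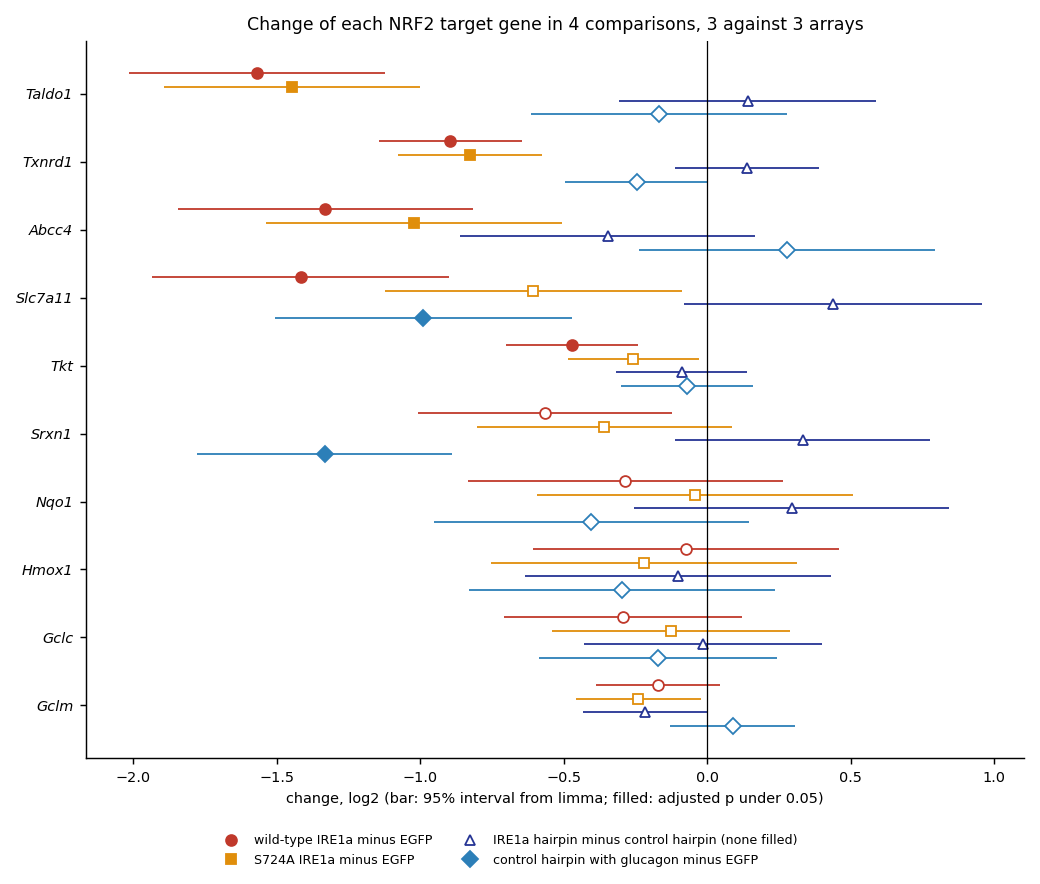
Change (x axis, log2, bars are 95% intervals) of each NRF2 target gene (y axis) in 4 comparisons of 3 against 3 arrays; filled symbols have an adjusted p under 0.05. With wild-type IRE1a 5 genes are filled, with S724A 3, with the IRE1a hairpin none, and in the comparison of the control hairpin with EGFP Srxn1 and Slc7a11.

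The hairpin arm asks what loss of IRE1a does in cells that received glucagon. None of the 10 targets passed in limma, and none had an unadjusted p under 0.05 at its brightest probe set. Of the 20 probe sets none passed. In limma 2 dimmer ones of Srxn1 had unadjusted p of 0.0120 and 0.0171, with changes of 0.56 and 0.43. With the replicate block no target passed either, and 5 had an unadjusted p under 0.05. In that fit 200 of 16294 genes passed, and 2276 had an unadjusted p under 0.05. Without the block 0.233% of all genes passed, and 0.17% of all probe sets. These 38 genes became 13 without replicate 2 of the IRE1a hairpin and 75 without replicate 3 of the control hairpin. Changes ran from -0.35 ± 0.24 for Abcc4 (adjusted p = 0.737) to 0.44 ± 0.24 for Slc7a11 (adjusted p = 0.682), with 5 positive and 5 negative. Slc7a11 read 8.33, 8.32 and 8.63 with the control hairpin and 8.55, 8.96 and 9.07 with the IRE1a hairpin, and Srxn1 read 10.34, 11.00 and 11.38 against 10.93, 11.39 and 11.39. Both groups overlapped in each gene. Nqo1 read 6.87, 6.84 and 7.45 against 7.28, 7.08 and 7.68, and Abcc4 6.18, 6.38 and 6.64 against 5.93, 6.03 and 6.19, also with overlap. Hmox1 read 10.57, 10.99 and 11.19 against 10.52, 11.07 and 10.86, and Gclc 12.25, 12.70 and 13.03 against 12.36, 12.70 and 12.87. Replicate 1 was the lowest array of both hairpin groups in both genes. Gclm read 10.12, 10.40 and 10.42 against 10.05, 10.16 and 10.07 (-0.22 ± 0.10, adjusted p = 0.642), and Tkt 12.67, 12.81 and 12.55 against 12.52, 12.79 and 12.44. Within same-number pairs of arrays, Slc7a11, Srxn1, Nqo1, Taldo1 and Txnrd1 were higher with the IRE1a hairpin in all 3 pairs, and Abcc4, Gclm and Tkt lower. Such agreement of 3 pairs, in 8 of the 10 targets, was found in 35.4% of all genes, and the tally was made after the data were seen. Whether the changes in this arm differ from those with added IRE1a was not tested.

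The control groups of the arms were also set side by side, although virus, time in culture and glucagon all differ between them and cannot be told apart. Srxn1 and Slc7a11 were lower in the control hairpin group with glucagon than with EGFP, and no target rose, against 6.74% of all genes that fell and 9.34% that rose. These shares were 3.07% and 5.09% without control hairpin replicate 1 and 3.23% and 5.05% without EGFP replicate 3. Srxn1 was 2.52-fold lower, a change of -1.33 ± 0.21 (adjusted p = 0.00103), and all 4 of its probe sets fell, by 0.59 to 1.55 on the log2 scale. Slc7a11 changed by -0.99 ± 0.24 (adjusted p = 0.0139), which did not pass without EGFP replicate 3 (0.0716), without control hairpin replicate 1 (0.0550) or as the mean of its probe sets (0.0725). Of the 20 probe sets 7 fell, against 5.12% of all probe sets, among them 2 of the 3 of Txnrd1, by 0.59 and 0.57. The brightest Txnrd1 probe set gave -0.25 ± 0.12 (adjusted p = 0.162), and the mean of all 3 gave -0.47 (adjusted p = 0.00688). Taldo1 and Abcc4, at -0.17 ± 0.21 and 0.28 ± 0.24, did not pass here.

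The regulators of the pathway were measured beside their targets. Nfe2l2 read 11.63, 11.63 and 11.68 with EGFP, 11.43, 11.88 and 11.85 with wild-type IRE1a, and 11.51, 11.84 and 12.00 with S724A, and its changes of 0.07 ± 0.15 and 0.14 ± 0.15 did not pass. In the hairpin arm Nfe2l2 read 12.20, 12.14 and 11.76 with the control hairpin and 12.35, 12.23 and 12.30 with the IRE1a hairpin, a change of 0.26 ± 0.15 (adjusted p = 0.704). Keap1, the brake on NRF2, changed by 0.16 ± 0.11 with wild-type IRE1a and 0.21 ± 0.11 with S724A, which did not pass. Its second, dimmer probe set gave 0.31 and 0.43, and neither passed. Of the 10 regulators tested none rose or fell with wild-type IRE1a, S724A or the IRE1a hairpin. Between the control groups of the arms Maff, which encodes a small MAF partner of NRF2, was 2.98-fold higher with the control hairpin and glucagon (adjusted p = 3.09e-05). Bach1, a repressor that competes for the same DNA element, was higher there by 0.62 ± 0.13 (adjusted p = 0.00631), in 1 of its 2 probe sets and not in their average (adjusted p = 0.0813). Array levels report message and not the amount or location of NRF2 protein.

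Other genes of the same functions were followed by list, and the lists were not tested as sets. Of 12 glutathione genes none passed with either IRE1a virus. Of 7 further genes of the pentose phosphate pathway and NADPH supply, Me1, the cytosolic malic enzyme, fell with wild-type IRE1a (-0.67 ± 0.14, adjusted p = 0.00823), while Idh1, the cytosolic isocitrate dehydrogenase, rose by 0.76 ± 0.17 (adjusted p = 0.0135); the rise of Idh1 did not pass without EGFP replicate 2 or wild-type IRE1a replicate 3. None of these 7 passed with S724A. Of 12 genes for thioredoxins, peroxiredoxins and other peroxide removal none passed with wild-type IRE1a. With each IRE1a virus 11 had positive changes, with medians of 0.19 and 0.15 beside 0.003 and -0.01 over all genes tested. The median half-width of their 95% intervals was 0.28. In the same list Sod2, the mitochondrial superoxide dismutase, and Prdx4, the peroxiredoxin of the endoplasmic reticulum, rose with S724A by 0.57 ± 0.12 and 0.42 ± 0.11 (adjusted p = 0.0103 and 0.0370). The Sod2 rise did not pass without EGFP replicate 2 or as the mean of its probe sets, and the Prdx4 rise did not pass without any 1 of its 6 arrays.

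Of 7 genes of iron and haem handling, Blvra, the biliverdin reductase that acts on the product of haem oxygenase, read 9.55, 9.42 and 9.61 with EGFP, 8.31, 7.96 and 8.15 with wild-type IRE1a, and 7.82, 7.59 and 7.62 with S724A. Both IRE1a groups lay clear of EGFP, at -1.39 ± 0.11 (adjusted p = 3.17e-06) and -1.85 ± 0.11 (adjusted p = 1.87e-07). Fech, which puts iron into haem, rose with wild-type IRE1a by 0.49 ± 0.11 (adjusted p = 0.0123), and did not pass without EGFP replicate 2 or wild-type IRE1a replicate 3. Of 11 detoxification and export genes, Ces2a, a carboxylesterase, fell with wild-type IRE1a (-1.05 ± 0.26, adjusted p = 0.0241) and with S724A (-1.24 ± 0.26, adjusted p = 0.0113). The call was lost without EGFP replicate 3 in both comparisons, and with wild-type IRE1a also without EGFP replicate 2, wild-type IRE1a replicate 1 or wild-type IRE1a replicate 2. Of 14 ATF4 targets, a list relevant to Slc7a11, none passed with either IRE1a virus, and 10 and 11 of them had positive changes. Their median change was 0.19 with each virus, and the median half-width of their 95% intervals was 0.40. In the hairpin comparison and between the IRE1a forms no gene of these lists passed.

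**Figure D4:**
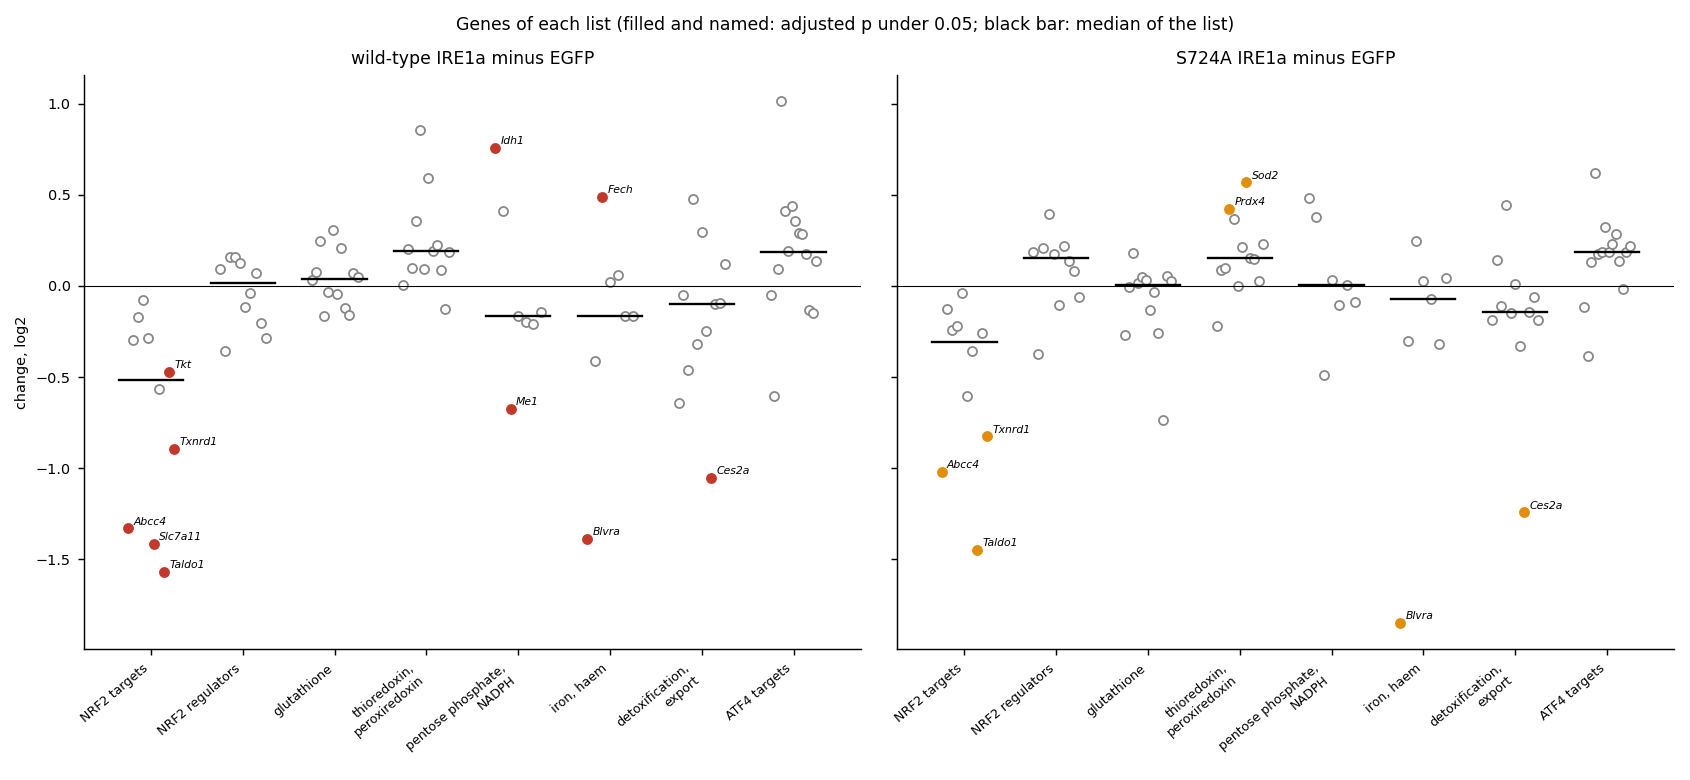
Change (y axis, log2) of the tested genes of each list (x axis) with wild-type IRE1a (left) and S724A IRE1a (right) against EGFP; filled, named points have an adjusted p under 0.05 and black bars are list medians. The NRF2 targets have medians of -0.52 and -0.31 and hold 5 and 3 filled points, all below 0, while the glutathione list has none.

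Between the control groups of the arms, 5 of the 14 ATF4 targets were lower with the control hairpin and glucagon, where 6.74% of all genes fell. Among them were Trib3 (-0.98 ± 0.18, adjusted p = 0.00315) and Shmt2 (-0.83 ± 0.18, adjusted p = 0.00754), whose calls held without each array in turn. Those of Atf4, Mthfd2 and Chac1 were each lost without control hairpin replicate 1. Of the 12 glutathione genes 3 were lower, Gstm1, Gsta3 and Gstm3, and each call was lost when EGFP replicate 3 or control hairpin replicate 1 was left out. In the other lists Aox1, Ces2a, Blvra, Idh2 and Me1 were lower, and Akr1b8 and Prdx2 were higher. Of these, only the call of Idh2 (-0.64 ± 0.14, adjusted p = 0.00649) held without each array in turn.

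The genes whose pattern over the 15 arrays was most like that of a target differed from target to target. These are descriptions over arrays that share groups and experiments. For Taldo1 they were Tex264 and Atp6v1h, a receptor for autophagy of the endoplasmic reticulum and a subunit of the vacuolar proton pump (Pearson r = 0.97 for both), and for Txnrd1 they were Tex2 and again Atp6v1h (r = 0.98 and 0.96). Abcc4 was closest to Clcn7 and Dnaja4 (r = 0.96 and 0.94), and Srxn1 to Fignl1 and Fam111a (r = 0.97 and 0.95). Slc7a11 was closest to Lcn4 and Me1 (r = 0.86 and 0.83), and Tkt to Hspa9 and Zhx2 (r = 0.91 for both). For Nqo1, Hmox1, Gclc and Gclm the highest r ran from 0.85 to 0.88.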

How the data were processed

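Each RNA sample was hybridised to 1 Affymetrix whole-genome mouse array, with 3 arrays in each of 5 groups. The deposited values are log2 signals that the authors made with GCRMA, per the submitters' processing notes; no GCRMA version is given in the sources used here, and the log2 scale was read from the values. Of 45101 probe sets, 64 controls were left out and 34945 carried 1 gene symbol; 932 with several symbols and 9160 with none were not used. The brightest probe set stood for a gene, and genes at 4 or more on at least 3 arrays were tested (16294, and 30046 probe sets). In R 4.3.3, limma 3.58.1 fitted the 5 groups to all 15 arrays (lmFit, eBayes, 10 residual degrees of freedom, two-sided moderated test, Benjamini-Hochberg adjustment over all genes or probe sets, threshold 0.05). The median half-width of a 95% interval was 0.30, a precision set by the number of arrays and the spread of each gene. The fit was tested on simulated data. The genes, lists and tests were chosen with earlier results of these data known. Other genes were named from these lists by smallest p past the threshold, up to 4 per list and comparison, and 2 by likeness for each target.

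Replicate numbers are shared between groups in the labels. Same-number arrays deviated together within an arm, in 9 of 9 pairs of the expression arm (r from 0.20 to 0.54) and 3 of 3 of the hairpin arm (r from 0.33 to 0.69), so the replicate number pairs them there and was tried as a block. The alternatives were median centring, quantile normalisation, no filter or a filter of 6, the mean of probe sets, the 6 arrays alone, trended variances, the replicate block and each array left out.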

Additional observations from a re-analysis of the deposited data

How the results depend on the processing

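Of 690 changes of single targets recomputed under other settings, 659 kept their direction and side of the threshold, 8 lost and 5 gained a call, and 18 changed sign, each of these with an array left out and none past the threshold. Those signs belong to changes near 0, whose leave-one-out values ran for Hmox1 from -0.32 to 0.058 with wild-type IRE1a, from -0.11 to 0.35 between the IRE1a forms and from -0.28 to 0.045 with the IRE1a hairpin. They ran for Nqo1 with S724A from -0.27 to 0.11, for Taldo1 and Gclm between the IRE1a forms from -0.32 to 0.041 and from -0.0079 to 0.11, and for Gclc from -0.26 to 0.0096 with S724A, from -0.22 to 0.17 with the IRE1a hairpin and from -0.36 to 0.037 between the control groups of the arms. In that last comparison the count of targets that passed ran from 1 to 2, with 1 left without EGFP replicate 3 or control hairpin replicate 1.

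With the replicate block 6 targets fell with wild-type IRE1a and 4 with S724A, and it changed no call of a target other than Srxn1 and Slc7a11. Over all genes it gave 1726 that rose and 813 that fell with wild-type IRE1a (828 and 422 without it), 1448 and 899 with S724A (631 and 366), and 87 and 113 with the IRE1a hairpin (8 and 30). Quantile normalisation moved the split of all genes to 758 and 610 with wild-type IRE1a, 459 and 491 with S724A, and 1164 and 1411 between the control groups (1522 and 1098), with the count of targets that fell at 5, 3 and 2. Without EGFP replicate 2 the counts over all genes were 409 and 306 with wild-type IRE1a and 296 and 189 with S724A. Changes under about 0.44, the median half-width of the 95% intervals of the 10 targets, and Abcc4, whose signal lay near the filter with IRE1a, are where these arrays say least.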
